A study of Mus musculus with 10 samples.

Results

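Vascular endothelial growth factor (VEGF) signaling was examined through 10 genes: the ligands Vegfa, Vegfb, Vegfc, Vegfd and Pgf, the receptors Flt1, Kdr and Flt4, and the coreceptors Nrp1 and Nrp2. They were picked by gene name, and each was found once among the 55401 genes of the left ventricle (LV) tables. Wild-type (WT) mice underwent neonatal ascending aortic constriction (nAAC) or sham surgery, and the LV was sequenced at 4 weeks of age in 5 nAAC mice and 5 sham mice, with 1 library of total RNA per mouse. In nAAC the ascending aorta is narrowed surgically in the newborn, so that the LV grows up under pressure overload, and the pups stayed with and were fed by their mothers after either operation. The operation was thus the labelled difference between the groups, and each group stood for a whole LV sample in which several cell types are mixed.

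VEGF ligands are secreted dimers that bind receptor tyrosine kinases on endothelial cells. Vegfa drives the growth and permeability of blood vessels through Kdr (VEGFR2), the main signaling receptor, whereas Flt1 (VEGFR1) binds Vegfa, Vegfb and Pgf and in its soluble form acts as a decoy. Vegfc and Vegfd act mainly through Flt4 (VEGFR3), the receptor known for the growth of lymphatic vessels. Neuropilins hold ligands at these receptors and also bind class 3 semaphorins. In the heart, cardiomyocytes are a known source of Vegfa and Vegfb, and endothelial cells carry most of the receptors.

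Flt4 was the member with the largest increase in nAAC LV. Vegfa, Vegfc, Kdr and Nrp2 were also up-regulated, while Vegfb, Pgf, Flt1 and Nrp1 did not pass the test. Of the 10 members, 9 reached the minimum mean of 1 FPKM, a fragment count scaled to transcript length and library depth, and were tested. Of these 9, 5 were higher in nAAC at an adjusted p below 0.05 and 0 were lower, and over all 11867 tested genes 31.7% passed, 27.1% higher and 4.6% lower. Only Flt4 met the rule for differentially expressed genes (DEGs), which adds a log2 fold change (FC) above 1 and was met in the upward direction by 5.01% of all tested genes. Both members that passed the filter and separated the groups without overlap, Vegfa and Flt4, lay higher in nAAC, as did 18.9% of all tested genes, and the untested Vegfd separated them as well.

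These shares were read against a general shift, because the median log2 FC of all tested genes was 0.22 in the deposited FPKM. The median of the 9 members was 0.51. Dividing each library by the median, over genes, of its ratio to the geometric mean of all libraries (median-ratio scaling) brought the median of all genes to -0.002, and the upward share of all calls went from 85.5% to 51.8%. On that scale the members' median was 0.29, Flt4 alone was higher and Pgf alone lower, against 13% of all genes higher and 12.1% lower. The scale that is right for these libraries cannot be read from the tables, so the members that passed are given on both, and other genes are in the deposited FPKM unless stated. The libraries were of like depth, with an estimated 4.86 to 6.82 gigabases aligned in nAAC and 5.06 to 5.24 in sham. Genes of the mitochondrial genome took 32.8% to 39.9% of TPM in nAAC, 46.5% to 49.8% in sham replicates 1 to 3, and 33.7% and 38.3% in sham replicates 4 and 5. With these genes left out and FPKM rescaled, the median of all genes was 0.216 and 3 members passed. Sham replicate 4 stood apart, in that its deviation from the sham mean fell with transcript length (Spearman rho of -0.66 across genes, against -0.32 to 0.47 in the other 9 libraries), and without it 4 of the 9 members passed.

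**Figure D1:**
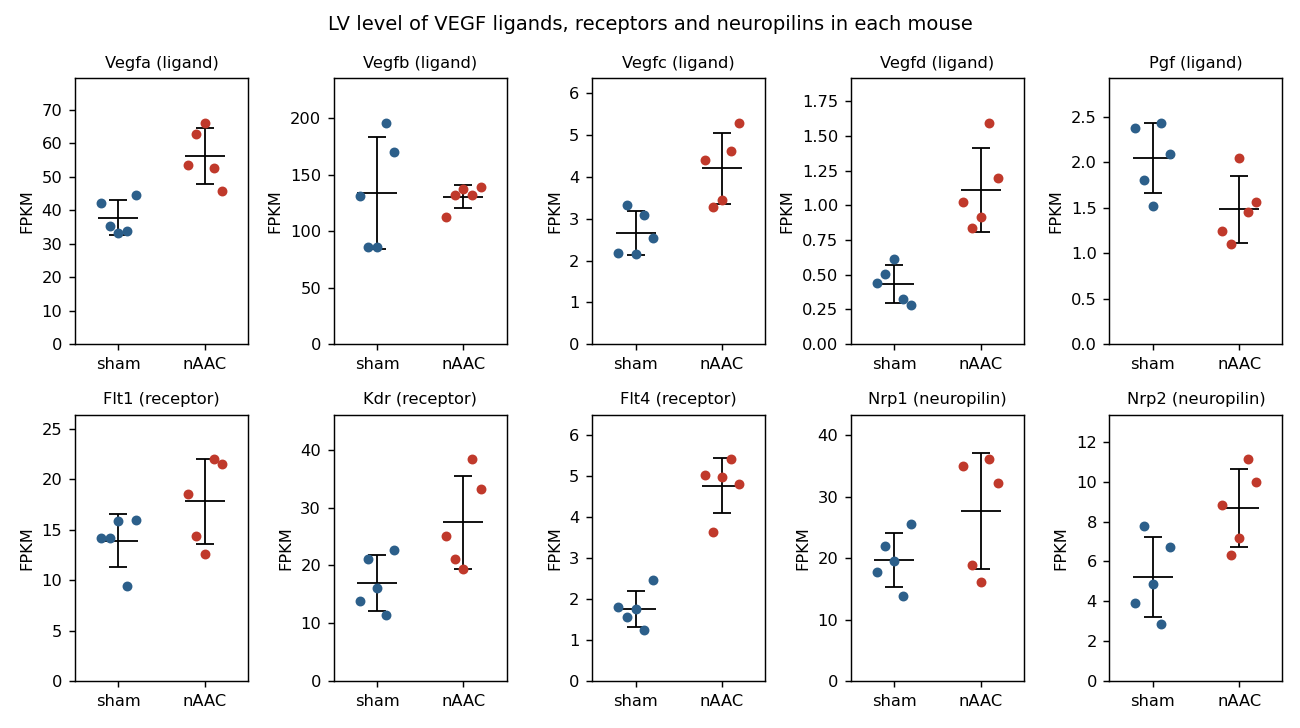
FPKM of each member in each mouse, 5 sham (blue) and 5 nAAC (red) points per panel in replicate order from left to right, with the mean and SD as bars and every axis starting at 0. Sham and nAAC points do not overlap for Vegfa, Vegfd and Flt4, and Vegfb spans 86.2 to 196 FPKM among sham mice.

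The start regions of 5 members are shown because they lie just upstream of transcription of the genes the results turn on, and because Vegfa, its receptors and neuropilins are often discussed as targets of hypoxia-inducible factors. RefSeq start sites of the mouse build GRCm38 matched all 10 members. Of the 5 members that passed the test, 4 are printed, together with Flt1, each 5' to 3' along the gene's own strand and ending just before the start site or, for Kdr and Nrp2, before the annotated exon. The region of Flt4 lies within an annotated exon and is not printed. Capitals mark the core of a hypoxia response element, ACGTG or GCGTG on either strand (CACGT or CACGC when read on the other strand). The regions are chr17:46032378-46032627 on the minus strand for Vegfa, chr8:54077282-54077531 on the plus strand for Vegfc, chr5:75978459-75978705 on the minus strand for Kdr, chr5:147726012-147726261 on the minus strand for Flt1 and chr1:62703067-62703284 on the plus strand for Nrp2.
Vegfa: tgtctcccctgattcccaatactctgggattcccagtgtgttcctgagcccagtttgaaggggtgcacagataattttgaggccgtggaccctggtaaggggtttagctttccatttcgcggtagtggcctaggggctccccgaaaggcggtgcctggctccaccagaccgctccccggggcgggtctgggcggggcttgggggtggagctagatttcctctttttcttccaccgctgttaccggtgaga
Vegfc: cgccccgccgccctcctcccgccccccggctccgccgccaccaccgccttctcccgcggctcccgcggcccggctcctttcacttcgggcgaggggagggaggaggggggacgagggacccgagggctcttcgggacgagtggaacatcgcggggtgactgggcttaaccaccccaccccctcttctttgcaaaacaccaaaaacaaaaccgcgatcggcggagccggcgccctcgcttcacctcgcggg
Kdr: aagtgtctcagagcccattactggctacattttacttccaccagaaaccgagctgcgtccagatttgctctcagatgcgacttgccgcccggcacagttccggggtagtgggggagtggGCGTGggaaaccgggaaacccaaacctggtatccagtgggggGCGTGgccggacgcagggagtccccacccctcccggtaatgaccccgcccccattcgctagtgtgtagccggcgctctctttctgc
Flt1: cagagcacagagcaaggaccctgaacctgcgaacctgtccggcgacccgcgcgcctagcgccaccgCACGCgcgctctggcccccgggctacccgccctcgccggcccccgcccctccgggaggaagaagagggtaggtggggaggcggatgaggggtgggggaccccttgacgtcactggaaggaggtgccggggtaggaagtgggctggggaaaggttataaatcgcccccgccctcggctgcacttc
Nrp2: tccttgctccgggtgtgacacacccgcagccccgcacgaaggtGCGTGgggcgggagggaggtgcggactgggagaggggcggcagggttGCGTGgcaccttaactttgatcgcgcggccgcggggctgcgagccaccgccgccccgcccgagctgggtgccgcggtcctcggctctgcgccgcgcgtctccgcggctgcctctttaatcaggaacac
The core was found 2 times in the 250 bases before the start of Kdr, 2 times before Nrp2 and 1 time before Flt1. No match lay in the printed windows of Vegfa and Vegfc, and sequence further upstream was not searched. A second RefSeq start of Vegfa, whose window lies mostly in an annotated exon and is not printed, had 2 matches, 218 and 211 bases before it. Of the members not printed, Vegfb had 2 matches and Nrp1 had 1, Pgf had 1 at the first of its starts, and Flt4 and Vegfd had no match. The Kdr matches began 131 and 89 bases before the start, and those of Nrp2 207 and 160 bases before it. Such a core is common, as 38.6% of the 32851 mouse start regions of the same length held at least 1, so a match describes the letters only. Guanine and cytosine made up 59.2% of the Vegfa region and 72.5% of the Nrp2 region, and the median over all start regions was 52.4%. Flt1 also held a TATAAA 31 bases before its start, which 12.4% of all start regions had somewhere in the window.

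Among the ligands, Vegfb was the most abundant and Vegfa the next, and both lay far above the other ligands in either group. Vegfb made up 67.5% ± 2.93 (SD, n = 5) of the summed ligand FPKM in nAAC and 74.4% ± 6.16 in sham, and Vegfa 29.0% ± 3.41 and 22.6% ± 5.44. Vegfc, Vegfd and Pgf together stayed at a few percent of the sum. The mean FPKM fell in the order Vegfb, Vegfa, Nrp1, Kdr, Flt1, Nrp2 in both groups. Nrp1 overlapped with Kdr, and Kdr with Flt1, in the range over mice. Below Nrp2 the order differed, since Flt4 stood above Vegfc in nAAC and below Vegfc and Pgf in sham, although the ranges of Flt4 and Vegfc in nAAC and of Vegfc, Pgf and Flt4 in sham overlapped between neighbours, as did Pgf and Vegfd in nAAC and Nrp2 and Vegfc in sham.

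Vegfa (chr17:46016993-46032369, ENSMUSG00000023951) encodes the ligand that drives most blood vessel growth. In nAAC replicates 1 to 5 it stood at 53.4, 62.9, 66.1, 52.7 and 45.8 FPKM, and in sham replicates 1 to 5 at 42.1, 35.2, 33.1, 33.7 and 44.6 FPKM. The nAAC values all exceeded the sham values, with the closest values being nAAC replicate 5 and sham replicate 5. The means were 56.2 ± 8.26 and 37.8 ± 5.25 FPKM (SD, n = 5 each), a ratio of 1.49, and the log2 FC was 0.56 with an SE of 0.14 (adjusted p = 0.0086). After median-ratio scaling the log2 FC was 0.29 and no longer passed (adjusted p = 0.163). The gene table sums all transcripts, so the short and the matrix-bound forms of Vegfa could not be separated.

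Vegfb (chr19:6982473-6987651, ENSMUSG00000024962), a ligand of Flt1 that is tied to fatty acid handling and coronary vessels in heart, differed more among sham mice than between the groups. Its FPKM was 113, 132, 137, 132 and 139 in nAAC and 131, 86.4, 86.2, 196 and 169.9 in sham. Sham replicates 2 and 3 lay below all nAAC mice, sham replicates 4 and 5 above them and sham replicate 1 among them. The log2 FC was 0.04 with a 95% confidence interval from -0.44 to 0.52 (adjusted p = 0.90), and it turned negative on the median-ratio scale, at -0.24 (adjusted p = 0.409). Without sham replicate 4 it was 0.20 (adjusted p = 0.426). With the trend of each library on GC content and transcript length removed, Vegfb was lower in nAAC, with a log2 FC of -0.39 (adjusted p = 0.0046), as were 15.9% of all genes on that scale, with 14.2% higher. Its longest transcript, of 1281 bases and 62.6% GC, is the shortest and most GC-rich of the 10 members.

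Vegfc and Vegfd, the ligands of Flt4, were both low in the LV and higher in nAAC. Vegfc (chr8:54077606-54187096, ENSMUSG00000031520) measured 4.40, 3.27, 3.44, 4.61 and 5.29 FPKM in nAAC and 2.17, 3.33, 2.15, 3.08 and 2.54 in sham. The groups overlapped by the single pair of nAAC replicate 2 and sham replicate 2. The ratio of means was 1.58 and the log2 FC 0.51 with an SE of 0.14 (adjusted p = 0.0146), which became 0.29 after median-ratio scaling (adjusted p = 0.134). Vegfd (chrX:164373378-164402650, ENSMUSG00000031380) measured 1.02, 0.834, 0.913, 1.60 and 1.198 FPKM in nAAC and 0.440, 0.508, 0.616, 0.326 and 0.282 in sham. All nAAC values lay above all sham values, and the means of 1.11 ± 0.302 and 0.434 ± 0.136 FPKM gave a ratio of 2.56. Because its mean of 0.774 FPKM was under the filter, Vegfd stood outside the fit, and exact permutation of its 5 nAAC and 5 sham log2 values gave a two-sided p of 0.0079, the smallest value that this design allows.

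Pgf (chr12:85166635-85177790, ENSMUSG00000004791), placental growth factor, binds Flt1 but not Kdr. Its FPKM was 1.24, 1.10, 2.05, 1.45 and 1.57 in nAAC and 2.38, 1.81, 1.52, 2.43 and 2.09 in sham. It was the only member with a lower mean in nAAC by more than a few percent, and the groups overlapped, with nAAC replicates 3 and 5 inside the sham range and sham replicates 2 and 3 inside the nAAC range. The log2 FC was -0.30 with an SE of 0.13 (adjusted p = 0.0965) as deposited, and -0.47 after median-ratio scaling (adjusted p = 0.0149). Ratios within each mouse were formed from FPKM + 1, which compresses them where a gene is as low as Pgf. Set against Vegfa in this way, Pgf gave a measure that scaling between libraries moves little. This log2 Pgf/Vegfa ranged from -4.93 to -4.19 in nAAC and from -3.88 to -3.34 in sham. The difference of -0.86 separated the groups (exact permutation p = 0.0079, adjusted over the 11 ratios p = 0.0437). Its larger part came from Vegfa, with a log2 FC of 0.56 on the same scale against -0.30 for Pgf. The other ligand ratios did not pass, with differences of -0.52 for Vegfb/Vegfa (exact p = 0.0635, adjusted p = 0.140) and -0.05 for Vegfc/Vegfa (exact p = 0.841, adjusted p = 0.925).

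**Figure D2:**
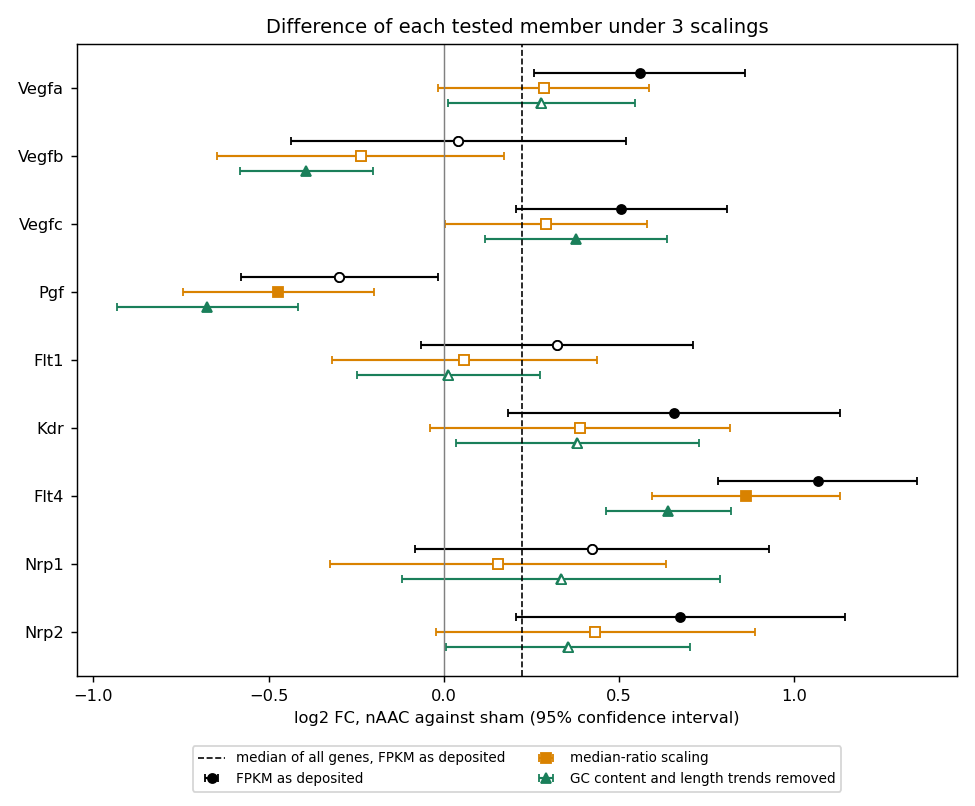
Log2 FC of the 9 tested members in nAAC against sham, with 95% confidence intervals, in the deposited FPKM (black circles), after median-ratio scaling (orange squares) and with GC content and transcript length trends removed (green triangles). Filled symbols passed an adjusted p below 0.05, open symbols did not, and the dashed line at 0.22 is the median of all genes as deposited. Flt4 is the 1 member with filled symbols on all 3 scales.

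Flt4 (chr11:49609263-49652739, ENSMUSG00000020357) rose the most among the receptors. Its values were 5.03, 3.63, 4.98, 5.41 and 4.80 FPKM in nAAC and 1.81, 1.56, 1.75, 1.25 and 2.46 in sham. No nAAC mouse fell into the sham range, and the lowest nAAC value was that of replicate 2. Means of 4.77 ± 0.675 and 1.76 ± 0.443 FPKM gave a ratio of 2.70. The log2 FC was 1.07 with an SE of 0.13 (adjusted p = 6.03e-05), it was 0.86 after median-ratio scaling (adjusted p = 0.00024), and it was 0.64 with GC content and length trends removed (adjusted p = 9.78e-05). The adjusted p stayed under 0.05 in each of the 19 alternatives tried. Without sham replicate 4, whose value was the lowest, the log2 FC was 0.996, just under the DEG threshold.

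Kdr (chr5:75932827-75978458, ENSMUSG00000062960), the main signaling receptor, was the most abundant receptor. It stood at 25.1, 21.1, 19.4, 38.3 and 33.2 FPKM in nAAC and at 13.8, 21.02, 16.1, 11.3 and 22.7 in sham. The top of the sham range reached into the nAAC range, and the highest nAAC values were those of replicates 4 and 5. Kdr was up-regulated with a ratio of means of 1.62 and a log2 FC of 0.66 (SE 0.22, adjusted p = 0.0360). The call was not held after median-ratio scaling (log2 FC 0.39, adjusted p = 0.178), and leaving out single mice kept it in 4 of 10 cases. Without sham replicate 4 the log2 FC was 0.53 (adjusted p = 0.0622).

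Flt1 (chr5:147561604-147726011, ENSMUSG00000029648), which can act as a decoy for Vegfa, did not pass the test. It measured 18.5, 14.4, 12.6, 21.99 and 21.6 FPKM in nAAC and 14.1, 14.2, 15.9, 9.46 and 16.0 in sham. The spread of the nAAC mice covered most of the sham range, with replicates 1, 4 and 5 above all sham mice. Its log2 FC of 0.32 had a 95% confidence interval from -0.07 to 0.71 (adjusted p = 0.185), which includes both no change and an increase as large as that of Vegfa. Because the table has 1 value per gene, soluble and membrane-bound Flt1 could not be told apart. Within each mouse log2 Flt1/Kdr averaged -0.58 ± 0.129 in nAAC and -0.25 ± 0.260 in sham (SD, n = 5), and this difference of -0.33 had an exact permutation p of 0.0476 that did not hold after adjustment (adjusted p = 0.140).

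The neuropilins were both higher on average, and only Nrp2 passed. Nrp2 (chr1:62703285-62818695, ENSMUSG00000025969), the coreceptor that binds Vegfc and Sema3f, measured 8.82, 6.32, 7.17, 11.1 and 10 FPKM in nAAC and 3.94, 7.76, 4.87, 2.85 and 6.71 in sham. Sham replicates 2 and 5 lay within the nAAC range. The ratio of means was 1.66 and the log2 FC 0.68 (SE 0.22, adjusted p = 0.0304), and after median-ratio scaling it was 0.43 (adjusted p = 0.159). Leaving out single mice kept the call in 5 of 10 cases, and without sham replicate 4 the log2 FC was 0.52 (adjusted p = 0.0492). Nrp1 (chr8:128358604-128503363, ENSMUSG00000025810), the coreceptor of Vegfa and Sema3a, measured 35.1, 18.9, 16.1, 36.1 and 32.2 FPKM in nAAC and 17.8, 21.9, 19.5, 13.9 and 25.6 in sham. nAAC replicates 1, 4 and 5 lay above all sham mice, whereas replicates 2 and 3 lay inside the sham range, and the log2 FC of 0.42 had a 95% confidence interval from -0.08 to 0.93 (adjusted p = 0.183). The log2 Nrp2/Nrp1 ratio differed by 0.25 (exact permutation p = 0.167, adjusted p = 0.229).

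Flt1, Kdr, Nrp1 and Nrp2 shared part of their order among mice within each group, and Flt4 did so less. Replicates 1, 4 and 5 were the highest of the nAAC mice for Flt1, Kdr, Nrp1 and Nrp2. For Flt4, nAAC replicate 3 (4.98 FPKM) stood above replicate 5 (4.80 FPKM). Sham replicate 4 was the lowest sham mouse for all 3 receptors and both neuropilins. These members have long transcripts, from 3645 bases in Nrp1 to 6895 in Flt1. Deviations from the group mean rose with transcript length across genes in nAAC replicates 1, 4 and 5 (rho of 0.31, 0.07 and 0.14). They fell in replicates 2 and 3 (-0.22 and -0.32). In sham replicates 1 to 5 rho was 0.28, 0.47, 0.4, -0.66 and -0.02. Sham replicate 5, however, was the highest sham mouse for Flt1, Kdr, Flt4 and Nrp1, and sham replicate 2 was the highest for Nrp2. Vegfa, with a longest transcript of 3451 bases, was highest in nAAC replicates 2 and 3 and lowest in replicate 5. The cause of this shared variation was not tested. With GC content and length trends removed the log2 FC was 0.38 for Kdr (adjusted p = 0.092), 0.35 for Nrp2 (adjusted p = 0.118), 0.01 for Flt1 (adjusted p = 0.950) and 0.34 for Nrp1 (adjusted p = 0.256). Xist, the RNA of the inactive X chromosome, was above 3 FPKM in 4 of 5 nAAC and 2 of 5 sham libraries, and this RNA marks female mice. With Xist as a covariate Vegfa (log2 FC 0.58, adjusted p = 0.0402) and Flt4 (0.91, adjusted p = 0.00104) passed, and Vegfc, Kdr and Nrp2 did not.

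In whole LV, more endothelial cells and more RNA per endothelial cell cannot be told apart. Of 12 general endothelial markers 3 were higher and 0 lower, namely Eng, Robo4 and Vwf, a share below the 27.1% of all genes, with a median log2 FC of 0.29 against 0.22 over all genes. After median-ratio scaling Vwf alone was higher (log2 FC 0.49, adjusted p = 0.0102). The summed FPKM of the markers ranged from 307 to 472 in nAAC and from 266 to 377 in sham, and none was at 0. Pecam1 (log2 FC 0.26, adjusted p = 0.287) and Cdh5 (0.06, adjusted p = 0.861), which define the vascular endothelium, did not pass. Relative to the mean of these markers in the same mouse, all as log2(FPKM + 1), Flt4 ranged from -2.36 to -1.83 in nAAC and from -3.09 to -2.71 in sham. The groups did not overlap in this measure, and the difference was 0.73 (exact permutation p = 0.0079, adjusted p = 0.0437). Kdr (0.32, adjusted p = 0.140), Nrp2 (0.34, adjusted p = 0.175), Nrp1 (0.09, adjusted p = 0.795) and Flt1 (-0.01, adjusted p = 0.944) did not pass relative to the same markers, by exact permutation tests adjusted over the 11 ratios. For Flt1 the sign of this difference depended on the reference, being 0.16 against Pecam1 and Cdh5 alone, and against that reference Kdr passed, with a difference of 0.50 (adjusted p = 0.0291 by the exact permutation test).

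**Figure D3:**
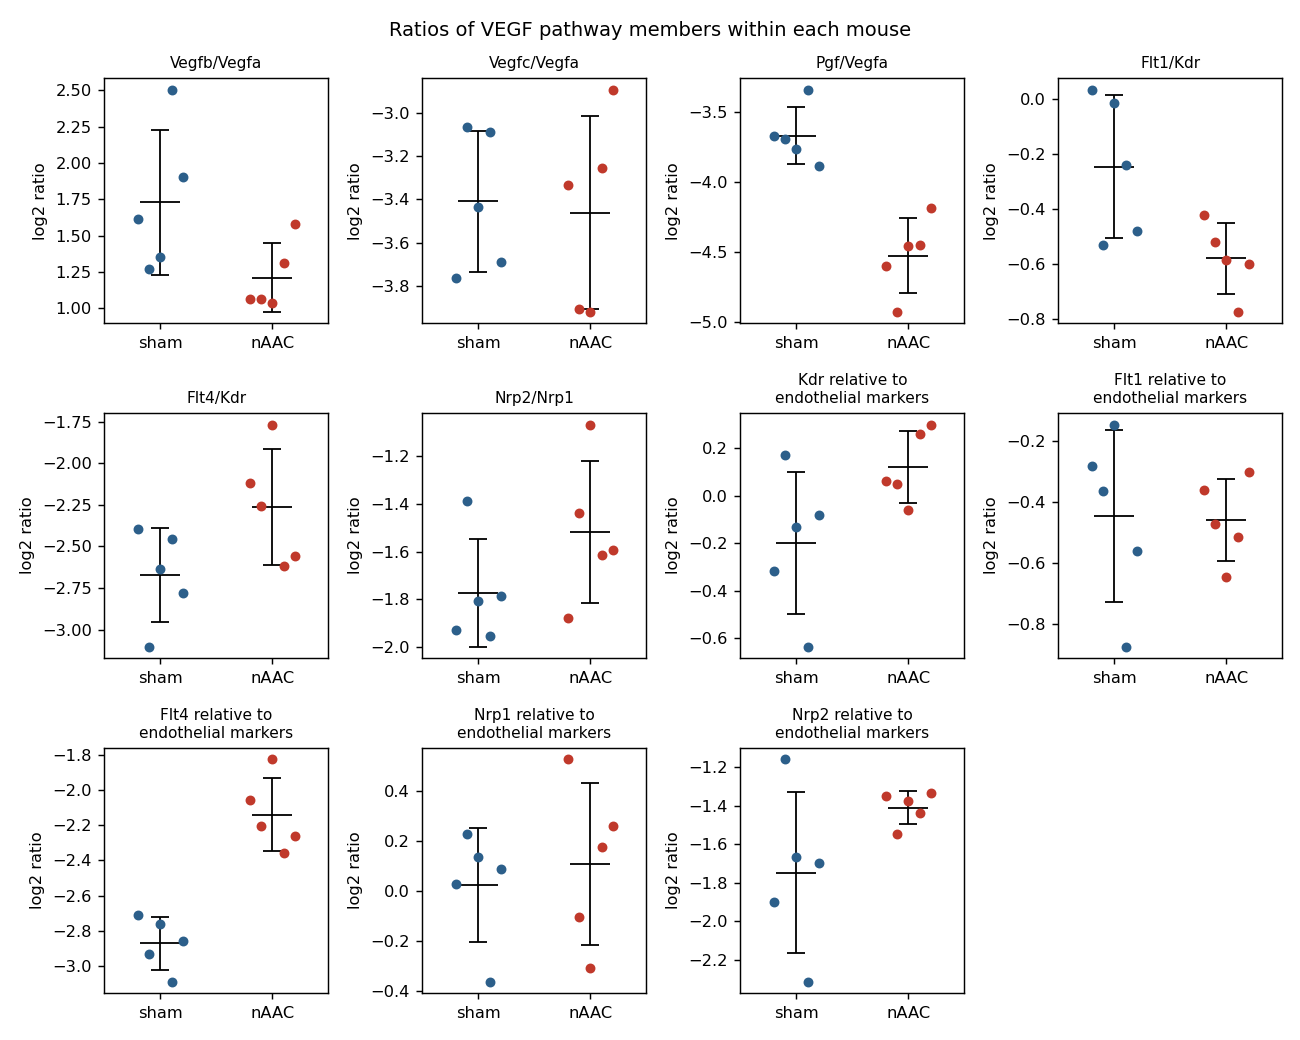
Within-mouse log2 ratios of members, and log2 levels of receptors and neuropilins minus the mean of 12 endothelial markers, for 5 sham (blue) and 5 nAAC (red) mice with the mean and SD, on axes that do not start at 0. The groups separate without overlap in 2 of the 11 panels, Pgf/Vegfa and Flt4 relative to endothelial markers.

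Most markers of lymphatic endothelium, where Flt4 is typically high, were higher along with Flt4, although whole LV does not show which cells made them. Of 6 markers 4 were higher, 0 were lower and none was at 0, and their summed FPKM ranged from 53.6 to 75.2 in nAAC and from 21.4 to 29.5 in sham. The lymphatic count is not read against all genes, because Reln reached the filter only through its nAAC values. Beside the marker counts below, 27.1% of all genes were higher and 4.6% lower as deposited. After median-ratio scaling these shares were 13% and 12.1%. Pdpn, a membrane glycoprotein of lymphatic endothelium, rose from 1.69 ± 0.307 to 5.58 ± 0.777 FPKM (SD, n = 5 each; log2 FC 1.29, adjusted p = 5.37e-06). Ccl21a, a chemokine that lymphatic vessels secrete, rose from 10.3 ± 3.72 to 37.8 ± 8.81 FPKM (log2 FC 1.81, adjusted p = 6.40e-05), with the limit that near-identical copies of this gene may share its reads. Mmrn1 (log2 FC 0.99) and Reln (0.86) were also higher, although Reln, at 0.454 ± 0.112 FPKM in sham, reached the filter only through its nAAC values. It also passed in the fit without a filter (adjusted p = 0.0293), and the same 4 markers passed after median-ratio scaling. Prox1, the transcription factor that defines lymphatic identity, stood at 6.55 ± 0.742 in nAAC and 6.06 ± 1.15 in sham (log2 FC 0.11, adjusted p = 0.552), and Lyve1, a hyaluronan receptor, at 6.49 ± 1.13 and 5.01 ± 0.329 (log2 FC 0.31, adjusted p = 0.0632). When Flt4 was set against the mean of these 6 markers in each mouse, a comparison chosen after the data were seen, the difference was 0.17 and the groups overlapped (exact permutation p = 0.317). Fibroblast markers were higher for 4 of 6 (summed FPKM 418 to 683 against 365 to 384) and for 2 of 6 after median-ratio scaling, Tcf21 and Col1a1. Mural cell markers were higher for 3 of 6 (194 to 297 against 157 to 287), while Rgs5 and Kcnj8 had log2 FC of -0.0024 and -0.0026 and Abcc9 one of -0.53 (adjusted p = 0.0825), lower after median-ratio scaling (-0.80, adjusted p = 0.0185). None of these was at 0. Macrophage markers were higher for 2 of 6 (73.8 to 146.8 against 39.4 to 82.0), close to the share of all genes, and for 1 after median-ratio scaling. Cardiomyocyte markers, none of them at 0, split into 2 higher (Actc1 and Mybpc3) and 2 lower (Pln and Tnni3) of 8 as deposited, and into 1 higher (Mybpc3) and 3 lower (Pln, Tnni3 and Myh6) after median-ratio scaling. Erythroid and atrial markers had 0 past the test, with the summed atrial FPKM reaching 227 in nAAC and 44.8 in sham. Whether cell composition has a part in the levels of Flt4, Vegfc and Vegfd was not tested.

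**Figure D4:**
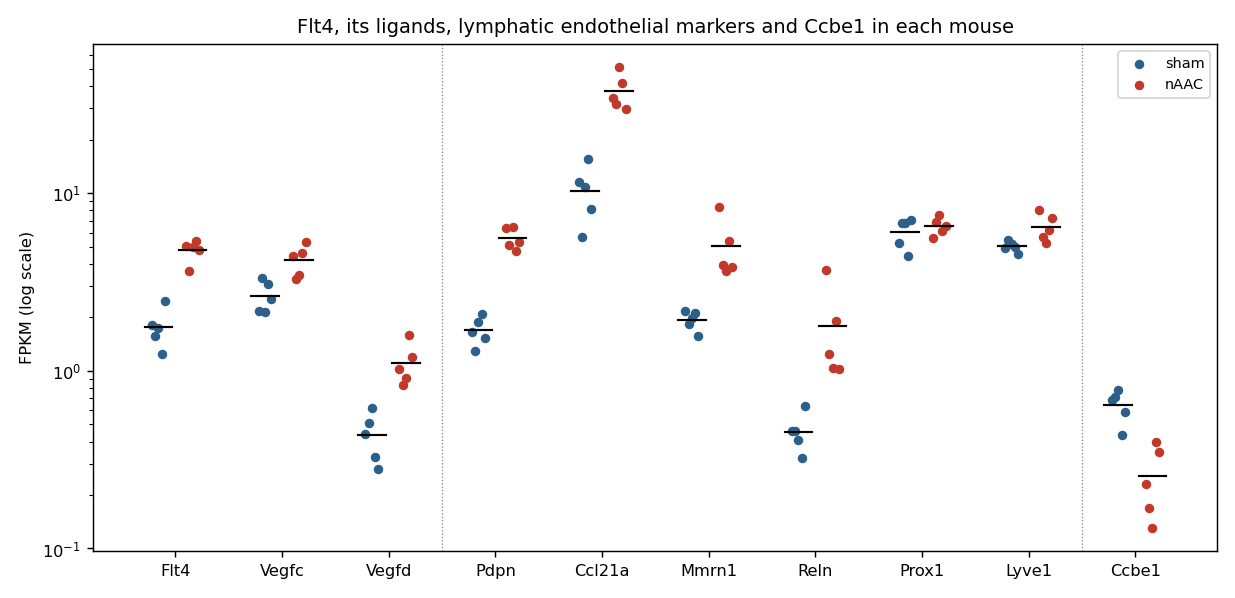
FPKM on a log axis in each sham (blue) and nAAC (red) mouse for Flt4 and its ligands, for the 6 lymphatic endothelial markers and for Ccbe1, with bars at the group means. Flt4, Vegfd, Pdpn, Ccl21a, Mmrn1 and Reln separate the groups upward, Ccbe1 separates them downward, and Prox1 overlaps.

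Genes that release VEGF ligands or process them were mostly at or below the filter. Of 9 such genes 4 were tested, with 1 higher and 0 lower, a share close to the 27.1% of all genes. Mmp14, a membrane protease, was the one that rose (9.10 ± 1.57 against 5.44 ± 0.516 FPKM, log2 FC 0.64, adjusted p = 0.00182). Plg was listed at 0 in all libraries. A pair of genes below the filter are named after their values were seen. Ccbe1, a secreted cofactor for the cleavage of Vegfc, ranged from 0.131 to 0.396 FPKM in nAAC and from 0.433 to 0.777 in sham, the opposite direction to Vegfc, and passed in the fit without a filter (log2 FC -0.39, adjusted p = 0.0105). Pcsk5, a proprotein convertase, averaged 1.33 ± 0.382 FPKM in nAAC and 0.548 ± 0.182 in sham (log2 FC 0.58, adjusted p = 0.0162 in the same fit). In that fit, 2.13% of the 29309 genes were lower and 11.6% higher.

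Class 3 semaphorins, the other ligands of neuropilins, stood higher in nAAC for 3 of 5 tested genes, and those 3 were DEGs. Over all genes 27.1% were higher and 5.01% were upward DEGs, but the count is not read against these shares. The reason is that Sema3d, at 0.657 FPKM on average in sham, reached the filter only through its nAAC values. Sema3f, which binds Nrp2, measured 10.5, 6.43, 10.97, 11.5 and 9.61 FPKM in nAAC and 3.12, 3.61, 2.94, 3.55 and 4.61 in sham. The groups did not overlap, and the log2 FC was 1.23 (adjusted p = 6.35e-05). Sema3b rose by 1.22 (adjusted p = 0.00074) and Sema3d, named after its values were seen, by 1.21 on the log2 scale (adjusted p = 0.00041 in the fit without a filter, since it reached the filter only through nAAC). All 3 also passed after median-ratio scaling, at 0.99, 0.98 and 1.05. Sema3c and Sema3g did not pass, and Sema3a and Sema3e lay below the filter. Plexins are semaphorin receptors, some of which pair with neuropilins. Of 6 tested plexins 3 were higher and 1 lower, and 2 and 1 after median-ratio scaling. The shares of all genes were 27.1% and 4.6% as deposited, and 13% and 12.1% after median-ratio scaling. The plexin counts are not read against them, because Plxna4 averaged 0.912 FPKM in sham and reached the filter only through its nAAC values. Plxna4 itself did not pass. Plxnd1, an endothelial semaphorin receptor, rose from 10.6 ± 3.43 to 18.8 ± 3.93 FPKM (log2 FC 0.80, adjusted p = 0.00961), and Plxnb2 from 14.1 ± 3.05 to 23.6 ± 2.72 (log2 FC 0.72, adjusted p = 0.00231). The 1 plexin that fell was Plxnb1, named after its values were seen (log2 FC -0.64, adjusted p = 0.00483).

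Genes that endothelial cells are known to switch on in response to VEGF were higher for 5 of 11 tested and lower for 0. Of those 5, Esm1, Egr3 and Plaur averaged under 1 FPKM in sham and reached the filter only through their nAAC values, so that this count is not read against all genes. After median-ratio scaling, where Egr3 and Plaur fell below the filter, 3 were higher and 1 lower. Rcan1, a calcineurin inhibitor induced by VEGF through NFAT, measured 53.2, 52.9, 60.6, 33.1 and 49.8 FPKM in nAAC and 13.8, 12.0, 12.4, 19.0 and 19.8 in sham (log2 FC 1.64, adjusted p = 3.02e-05). Nr4a1, an immediate early nuclear receptor, rose from 2.22 ± 0.667 to 5.67 ± 1.04 FPKM (log2 FC 1.06, adjusted p = 0.00022). The other genes that rose lay below the level set for naming and were picked out after their values were seen. Esm1, a proteoglycan of endothelial tip cells, measured 2.81, 2.51, 2.72, 3.50 and 3.64 FPKM in nAAC and 0.293, 0.198, 0.298, 0.209 and 0.261 in sham. No sham mouse came near the nAAC range, and in the fit without a filter its log2 FC was 1.68 (adjusted p = 1.58e-05). Egr3, an early growth response factor, was at 1.92 ± 0.218 against 0.121 ± 0.0666 FPKM (log2 FC 1.38, adjusted p = 1.58e-05 in the same fit), and Plaur, the urokinase receptor, at 1.36 ± 0.202 against 0.703 ± 0.253 (log2 FC 0.48, adjusted p = 0.0279 in the same fit). Dll4, Apln and Aplnr of the same list did not pass, with log2 FC of 0.34, -0.27 and 0.36, and Apln was lower after median-ratio scaling (-0.45, adjusted p = 0.0142). Rcan1, Nr4a1 and Egr3 are also expressed outside endothelium, cardiomyocytes included.

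Of 26 tested genes that carry the signal below VEGF receptors, 11 were higher and 1 lower, beside 27.1% and 4.6% of all genes. Of those 11, Src and Sphk1 averaged 0.808 and 0.536 FPKM in sham and reached the filter only through their nAAC values. The count is therefore not read as a result about this list. Shb, an adaptor that binds phosphorylated Kdr, rose from 5.30 ± 1.09 to 11.3 ± 1.64 FPKM (log2 FC 0.97, adjusted p = 0.00022), and Hspb1, a small heat shock protein phosphorylated below Kdr and abundant in muscle, from 92.9 ± 26.7 to 345 ± 59.3 (log2 FC 1.92, adjusted p = 1.44e-05). Pik3r1, the regulatory subunit of PI3 kinase, fell from 22 ± 6.19 to 11.8 ± 2.83 FPKM (log2 FC -0.83, adjusted p = 0.0106). After median-ratio scaling the counts of this list were 7 higher, with Src and Sphk1 among them, and 3 lower. Over all genes 13% were higher and 12.1% lower on that scale. Among 17 co-regulators of the receptors, 5 were higher and 0 lower, a share close to the 27.1% of all genes, and only Myo1c, a motor linked to the transport of Kdr, was higher on both scales (log2 FC 0.94, adjusted p = 0.00017, and 0.67, adjusted p = 0.00119, after median-ratio scaling). Gipc1, an adaptor of neuropilin tails, had a log2 FC of 0.79 (adjusted p = 0.0423), and after median-ratio scaling of 0.54 (adjusted p = 0.123).

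Vegfa is a well-known target of hypoxia-inducible factors, and other genes of that kind were measured beside it. Of 14 hypoxia-responsive genes 5 were higher and 0 lower as deposited, a share of 5 in 14 beside 27.1% of all genes. After median-ratio scaling 3 were higher and 1 lower, beside 13% and 12.1% of all genes. P4ha1, a collagen prolyl hydroxylase, rose from 5.28 ± 0.945 to 17.7 ± 2.79 FPKM (log2 FC 1.57, adjusted p = 3.70e-06), and Slc2a1, the glucose transporter GLUT1, from 2.71 ± 0.539 to 6.54 ± 1.90 (log2 FC 1.0, adjusted p = 0.0007). Pdk1, Ndrg1 and Hmox1 were the other tested genes that rose, and of these Ndrg1 alone also passed after median-ratio scaling (log2 FC 0.48, adjusted p = 0.0126). Car9, named after its values were seen, lay below the filter at 0.766 ± 0.356 FPKM in nAAC and 0.0164 ± 0.0232 in sham. It passed in the fit without a filter (log2 FC 0.77, adjusted p = 0.00312), where 11.6% of 29309 genes were higher. Of 8 genes of oxygen sensing, only the prolyl hydroxylase Egln3 was higher (log2 FC 0.63, adjusted p = 0.0141), a share below the 27.1% of all genes. This call was not held after median-ratio scaling (0.37, adjusted p = 0.201). The transcripts of the factors themselves did not pass, with a log2 FC of 0.12 for Hif1a (adjusted p = 0.511) and 0.21 for Epas1 (adjusted p = 0.350).

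**Figure D5:**
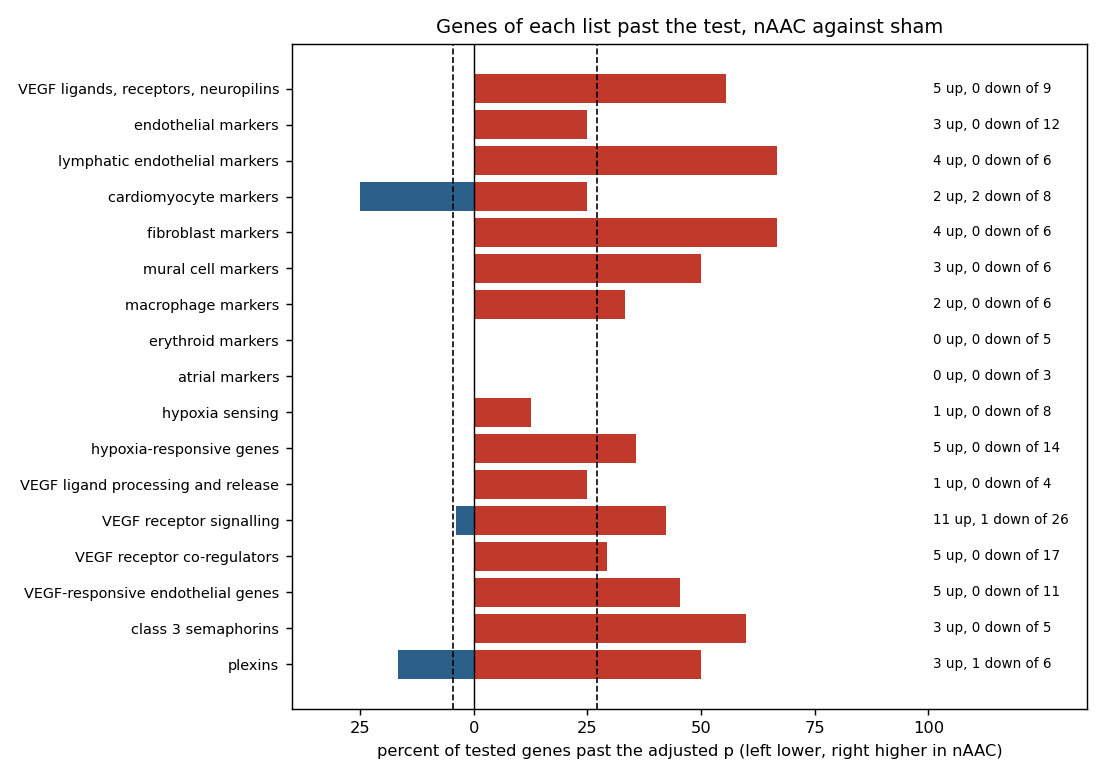
Percent of tested genes in each list that passed an adjusted p below 0.05 in nAAC against sham in the deposited FPKM, higher to the right in red and lower to the left in blue, with counts at the right. Dashed lines mark 27.1% and 4.6%, the shares over all 11867 tested genes, and the members lie above the upward share with 5 of 9. Esm1, Egr3, Plaur, Src, Sphk1, Reln, Sema3d and Plxna4 reached the filter only through nAAC. The bars that hold them (VEGF-responsive genes, receptor signaling, lymphatic markers, semaphorins and plexins) are therefore not read against the lines.

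The genes whose levels over the 10 libraries lay closest to a member are given as a description, by the root mean square (RMS) difference of centred log2 values among 8529 genes. Among the closest to Vegfa were Atp6v0a1 (RMS 0.0892), a proton pump subunit, and Myo18b (0.120), a myosin of striated muscle. Closest to Kdr were Itpripl2 (0.0655), Dab2 (0.126), an endocytic adaptor, and Akap12 (0.128). Closest to Flt1 were Slc43a3 (0.0822), Ankfy1 (0.10) and the fibroblast receptor Pdgfra (0.106). These genes share library, depth and scaling with the members, and the closeness includes the difference between the groups.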

How the data were processed

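LV RNA of 5 nAAC and 5 sham mice was sequenced from Trizol extracts with NEBNext Ultra libraries. For each gene and library the authors deposited a signal (mean coverage per base), an FPKM and a TPM, and per the labels the build was mm10. The aligner, the quantification tool and the use of strand are not given in the sources used here. Gene coordinates equalled GENCODE M21 for 99.4% of shared genes and for all 10 members. Coverage served only to estimate depth, whose precision is limited, since only about 15% to 17% of genes gave the modal ratio of FPKM to coverage. Counts could not be recovered.

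Rows of 1 gene ID were summed. limma 3.58.1 in R 4.3.3, with an empirical Bayes trend and no covariate, was fitted to log2(FPKM + 1) of the 11867 genes that averaged 1 FPKM or more, with Benjamini-Hochberg adjustment over all of them. A log2 FC on this scale understates the change of low genes. Ratios were also formed from FPKM + 1 and used two-sided exact permutation tests (smallest p 0.0079), adjusted over 11 ratios. The labels do not say more of how replicates were raised, so p values measure the spread between these mice. The members and lists were chosen with earlier results of these data known, and genes outside the members were named by a rule (the 2 largest increases and 2 largest decreases of a list past the test with a mean of at least 3 FPKM, or its first 2 genes where none passed). Genes outside this rule, namely those below the filter or under 3 FPKM and Eng, Pecam1, Cdh5, Mmrn1, Prox1, Lyve1, Rgs5, Kcnj8, Abcc9, Myh6, Pdk1, Ndrg1, Hmox1, Hif1a, Epas1, Dll4, Apln, Aplnr, Sema3c, Sema3g and Plxnb1, were chosen after their values were seen. Alternatives were other scalings, TPM, other filters and pseudocounts, an adjusted p below 0.01, a replicate block, an Xist covariate, Pecam1 and Cdh5 as the reference and leaving out each mouse. The removal of GC content and length trends (longest GENCODE transcript, 99.9% of tested genes) and lymphatic markers as the reference were added after seeing the data. Aldoa, with more than 1 gene ID, was left out. 1 of the genes near Vegfa is not reported here. Replicate numbers did not pair mice. Python 3.11.15, numpy 2.4.6, pandas 2.3.3, scipy 1.17.1 and matplotlib 3.10.9 were used.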

Additional observations from a re-analysis of the deposited data

Results flagged for a closer look

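Among the values of members and ratios in groups of 5 mice, 42 groups were examined for a mouse that stands away from the others by Dixon's ratio (the gap to the nearest mouse over the range of the group). A pair of values was marked, where about 2.1 would be by chance at 1 in 20. Vegfb of nAAC replicate 1, at 113 FPKM where the remaining nAAC mice held 132 to 139, had a ratio of 0.76. Flt1 of sham replicate 4, at 9.46 FPKM where the remaining sham mice held 14.1 to 16.0, had a ratio of 0.763. Without sham replicate 4 the log2 FC of Flt1 was 0.20 (adjusted p = 0.334), and without nAAC replicate 1 that of Vegfb was 0.09 (adjusted p = 0.788).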

How the results depend on the processing

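Flt4 stayed past the adjusted p in all 19 alternatives (log2 FC 0.64 to 1.40), Vegfa and Vegfc in 16 of 19 each and Kdr and Nrp2 in 7 of 19 each, while Flt1 and Nrp1 passed in none. Median-ratio scaling gave log2 FC of 0.29 for Vegfa, 0.29 for Vegfc, 0.39 for Kdr, 0.43 for Nrp2, -0.47 for Pgf (now past the test) and -0.24 for Vegfb, with 2 members past the test and 0 DEGs. Upper-quartile scaling gave 0.30, 0.30, 0.40, 0.44, -0.46 and -0.22 in the same order, also with 2 and 0. Leaving out mitochondrial genes lowered the count to 3, with Kdr at 0.65 (adjusted p = 0.0557) and Nrp2 at 0.66 (adjusted p = 0.0525). Without a filter on low values Kdr (0.66) and Nrp2 (0.68) did not pass (adjusted p = 0.0988 and 0.0916), where more genes were tested. The Xist covariate left 2 members and 0 DEGs, with Vegfc at 0.38, Kdr at 0.49, Nrp2 at 0.54 and Vegfb at -0.20, and lowered the calls over all lists from 56 to 33. An adjusted p below 0.01 left 2 members. With GC content and length trends removed, Vegfa (0.28), Kdr (0.38) and Nrp2 (0.35) did not pass, Pgf (-0.68) and Vegfb (-0.39) did, 0 members were DEGs, and Hba-a1 and Hba-a2, near-identical copies that did not pass in any case, turned to -0.0436 and -0.0165. The cause of these changes was not tested.

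The Flt4/Kdr ratio differed by 0.41 in the main setting and did not pass (adjusted p = 0.1455 by the exact permutation test). A pseudocount of 0.1 in place of 1 brought it to 0.72 (adjusted p = 0.0291) and turned Vegfc/Vegfa to 0.0726. Against Pecam1 and Cdh5 alone, Kdr passed at 0.50 (adjusted p = 0.0291) and Flt1 turned to 0.16. Against lymphatic markers Flt4 was at 0.17. Mice of the same replicate number did not deviate together (correlations -0.316 to 0.192). With the replicate number as a block, 4 members passed (Nrp2 0.68, adjusted p = 0.0513). The paired exact test of 5 differences cannot go below 0.0625, which Vegfd (0.55), Pgf/Vegfa (-0.86) and Flt4 relative to endothelial markers (0.73) therefore did not pass.

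Leaving out 1 mouse at a time gave 3 to 6 members past the test and 0 to 1 DEGs. The log2 FC ranged from 0.53 to 0.77 for Kdr, 0.52 to 0.81 for Nrp2, -0.38 to -0.24 for Pgf (past the test without nAAC replicate 3) and -0.10 to 0.20 for Vegfb (below 0 without sham replicate 2 or 3). Kdr lost its call without nAAC replicate 1, 4 or 5 or sham replicate 1, 3 or 4, and Nrp2 without nAAC replicate 1, 4 or 5 or sham replicate 1 or 3. The ratios ranged from -0.94 to -0.76 for Pgf/Vegfa, -0.194 to 0.0619 for Vegfc/Vegfa, 0.65 to 0.78 for Flt4 relative to endothelial markers, 0.21 to 0.41 for Kdr, -0.121 to 0.0615 for Flt1, -0.0184 to 0.19 for Nrp1 and 0.20 to 0.49 for Nrp2. With 4 against 5 mice the smallest exact p is 0.0159, so that few adjusted values could pass.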
